A study of Mus musculus with 94 samples.

Results

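The potassium channel genes of the mouse were followed across 4 tissues and 3 Hmgn mutant lines. Members were all probes whose platform gene symbol begins with Kcn. The rule gave 119 of the 25697 probes of the array, and these stand for 80 genes. A single probe represented 54 of the genes, and the other 26 had up to 4 probes each. By symbol, 32 genes encode pore subunits of voltage-gated channels, 15 auxiliary subunits, 13 two-pore-domain channels and 12 inward rectifiers. Another 7, with Kcnma, Kcnn, Kcnt and Kcnu symbols, were grouped as calcium- or sodium-activated, by name and not by how each opens. The remaining gene, Kcnrg, encodes a soluble protein known to hinder the assembly of voltage-gated channels.

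Potassium channels let potassium leave the cell and so set its resting potential and end its electrical signals. Voltage-gated members open on depolarization and shape the action potential, inward rectifiers and two-pore-domain members hold the resting potential, and calcium-activated members tie the membrane potential to calcium entry. Auxiliary subunits of the Kcnab, Kcne, Kcnip and Kcnmb families change how the pores traffic and gate. Neurons use many of these genes at once, whereas lymphocytes are known to rely on Kcna3 and Kcnn4 to sustain calcium signals during activation.

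Total RNA came from brain, liver, spleen and thymus of male C57BL/6N mice aged 17 weeks. Mutants of Hmgn1, Hmgn3 or Hmgn5, which encode nucleosome-binding proteins, were described as homozygous and each compared with wild types. Hmgn5 lies on chromosome X, so that term cannot be literal for the males of its line. The labels do not say how the alleles were made. Each of the 24 groups held 4 mice, except that the wild-type livers of the Hmgn1 and Hmgn5 lines held 3, and 94 arrays were used in all. These arrays came from 24 mice, each of which gave several tissues, so arrays of different tissues are not independent. The wild types carry no line in their labels and were assigned to a line by their mouse numbers.

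Values are background-subtracted intensities, and a probe was called above noise where it exceeded 1.6 times the noise of its array, estimated from the negative values. Each line and tissue had been normalized as a set of its own, so line and array set cannot be told apart. The labelled tissues carried most of their marker genes. The mean log2 level of hepatocyte markers had a median of 11.6 in wild-type liver and that of B cell markers 10.3 in spleen. That of T cell markers was 9.20 in thymus and that of neuron markers 8.66 in brain. Of the neuron markers, 2 of 5 were above noise on no wild-type brain array, and 1 of 4 T cell markers on no thymus array. In liver, 4 of 5 hepatocyte markers were above noise on every array, and in spleen 3 of 3 B cell markers. Markers of other tissues were present on some arrays. The pancreatic acinar score ranged from 5.30 to 11.5 over wild-type spleens and the skeletal muscle score from 4.64 to 9.33 over wild-type thymuses. The Hmgn3 probes were lower in labelled Hmgn3 mutants of brain, spleen and thymus at an adjusted p of 0.0175 or less, while the Hmgn1 probe passed the test in no tissue of the Hmgn1 line. The Hmgn5 probe fell by 1.08 on the log2 scale in thymus and was 0.59 higher in liver, both past the test. In whole tissue, fewer cells of a type and less RNA per cell cannot be told apart.

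Brain held the broadest set of potassium channel transcripts. In wild types, the median number of member probes above noise per array was 75 of 119 in brain, 38 in thymus, 34.5 in spleen and 21 in liver. Those medians are 63.0%, 31.9%, 29.0% and 17.6% of the members, against 62.6%, 52.7%, 52.0% and 50.1% of all probes on the array. On every array of a tissue, 49 member genes were above noise in brain, 12 in spleen, 10 in thymus and 4 in liver. Conversely, 29 member genes were above noise on no wild-type liver array, against 10 in brain. These gene counts were not made over all genes of the array.

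Levels were then compared between tissues in the 46 wild-type arrays (12 each of brain, spleen and thymus and 10 of liver), normalized together. A probe was called where limma gave an adjusted p under 0.05 and a difference of 1 or more on the scale of log2 of intensity plus 16, which understates the change of dim probes. Of the 93 member probes that could be tested, standing for 67 genes, 39 were higher in brain than in liver (41.9%), against 18.0% of all probes, and 2 were lower, against 16.2%. Against spleen, 39 were higher in brain and 6 lower, beside 17.8% and 17.9% of all probes. Against thymus, 35 were higher and 6 lower, beside 16.7% and 17.7%. The median member differed by 0.60, 0.64 and 0.61 on the log2 scale in these contrasts, while the median over all probes lay between -0.07 and -0.05. Any probe entered when above noise on at least 3 wild-type arrays of any tissue. Members that entered through brain alone, such as Kcnf1 and Kcnt1, were bound to lean towards brain. The counts and medians include them, so these are no independent support for a preference for brain.

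In the contrasts without brain, fewer members were higher in liver than in either lymphoid tissue. Liver exceeded spleen for 3 member probes (15.3% of all probes) and was lower for 12 (18.0%). It exceeded thymus for 3 (14.7%) and was lower for 13 (17.8%). Spleen exceeded thymus for 7 (7.55%) and was lower for 8 (6.24%), so this last pair was near the background in both directions.

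By gene, taking the probe of highest mean signal, 27 of the 80 were higher in brain than in each of the other 3 tissues. The share of all genes that meet this rule was not computed, so the counts below describe the members alone. These included 10 of the 32 voltage-gated pore genes, 8 of the 15 auxiliary genes, 3 of the 7 calcium- or sodium-activated genes, 3 of the 13 two-pore-domain genes and 3 of the 12 inward rectifiers. A single gene, Kcnk5, met the same rule for liver, 2 genes (Kcnk6 and Kcnj8) met it for spleen, and 2 (Kcnj15 and Kcna3) met it for thymus. A further 11 genes differed between some tissues without standing above all others in any, 24 had no called pair and 13 were too dim to test. The 27 brain genes include some that entered through brain alone, such as Kcnf1 and Kcnt1. Their number is therefore no independent support for a preference for brain.

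**Figure D1:**
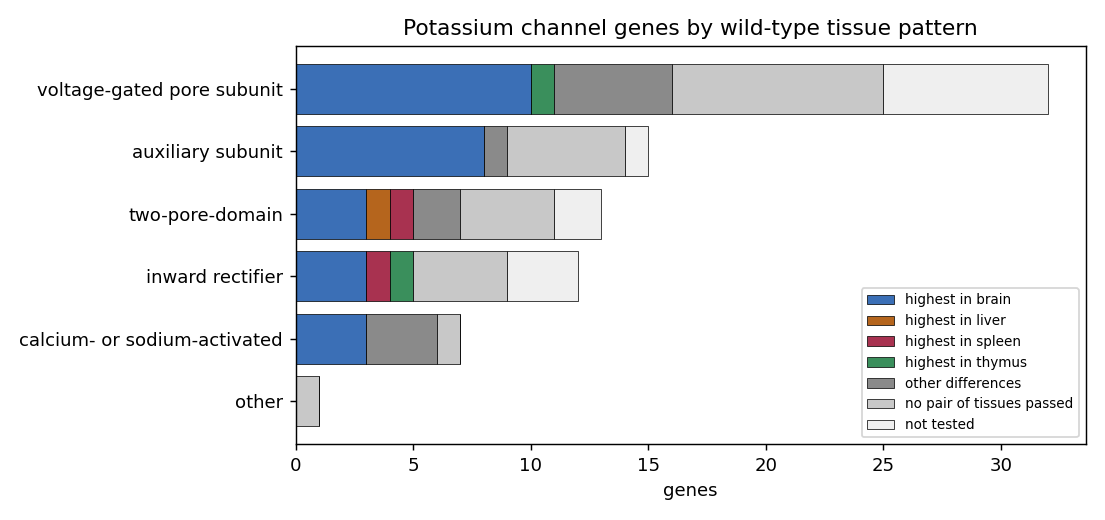
Number of potassium channel genes (horizontal axis) in each family, coloured by wild-type tissue pattern. Brain accounts for 27 of the 32 genes that were higher in 1 tissue than in each of the other 3, and the auxiliary subunits contribute 8 of them. Some of the 27 were tested only because they were above noise in brain, so they were bound to lean that way.

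Among voltage-gated pore genes, Kcnf1, a modifier subunit that forms no channel on its own, had the widest gap between brain and the other tissues. Its intensity over the 12 wild-type brains ran from 613 to 839 with a median of 736. In liver, spleen and thymus it was above noise on 1, 2 and 1 arrays, and its highest value there was 17.0. The brain groups did not overlap any other tissue, and the smallest of the 3 log2 differences was 5.20 (SE 0.11, adjusted p 1.1e-38). Kcnf1 entered the test through brain alone, so these values describe the gap and are no independent support for it.

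Kcnc4, a pore subunit of fast-repolarizing channels, ran from 1453 to 1819 in brain with a median of 1635. Its spleen values had a median of 55.6 and reached 135, and its medians in liver and thymus were 8.33 and 10.9. The smallest difference was therefore the one from spleen, 4.39 (SE 0.14, adjusted p 6.3e-31). Kcnc1, a related pore subunit of fast-spiking neurons, showed the same order, with 410 ± 42.9 (SD, n = 12) in brain, 49.5 ± 14.3 in spleen and 5.03 ± 3.97 in thymus. In liver Kcnc1 was above noise on 0 arrays, so its level in brain was at least 16.1-fold higher there. For both genes spleen exceeded thymus, by 1.62 for Kcnc4 and 1.63 for Kcnc1 on the log2 scale.

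Kcna2, a pore subunit known from juxtaparanodes of myelinated axons, had 342 ± 74.0 (SD, n = 12) in brain and at most 45.0 on any other array. Kcnd2, which carries the dendritic transient current of neurons, was more variable, with a lowest value of 41.4, a median of 258 and a highest of 366 in brain. Its brain arrays still lay above every array of the other tissues, where the highest value was 16.7. The smallest log2 difference was 3.51 for each of the 2 genes.

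Among auxiliary subunits, Kcnab1, a cytoplasmic beta subunit of voltage-gated channels, ran from 742 to 999 in brain with a median of 904. Its median was 27.5 in spleen, 6.27 in liver and 4.03 in thymus, and the smallest difference was 4.42 on the log2 scale (SE 0.16, adjusted p 2.8e-29). Its 2 further probes moved the same way. Over the 32 genes higher in a single tissue, 12 of the 17 tested further probes moved with the call at an unadjusted p under 0.05. Among brain genes, none did for Kcnh1 (0 of 1), Kcnk2 (0 of 1) and Kcnk4 (0 of 2), and 1 of 2 did for Kcnmb4. The related Kcnab2 did not follow this pattern. It had the highest mean intensity of any member in brain (2281 ± 323, SD, n = 12), in spleen (1325 ± 182, n = 12) and in thymus (1176 ± 210, n = 12), but was above noise on 0 of 10 liver arrays. Brain therefore exceeded liver at least 86.5-fold, spleen exceeded it at least 50.5-fold and thymus at least 44.6-fold, each with an adjusted p of 2e-45 or less. Spleen and thymus differed by 0.18 (adjusted p 0.079), below the size required for a call.

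Of the calcium-sensing Kcnip subunits that partner dendritic transient channels, Kcnip3 was highest in brain, with 411 ± 60.3 (SD, n = 12), against 22.8 ± 7.04 in spleen and 11.4 ± 6.10 in thymus. Kcnip1 and Kcnip2 were higher in brain too, by 2.08 or more for Kcnip1 in the 3 contrasts and by 1.71 or more for Kcnip2 against spleen and thymus. Kcnip2 was above noise on no liver array, and brain exceeded liver at least 2.29-fold. Both Kcnip1 and Kcnip2 entered the test through brain alone, so their differences were bound to lean towards brain. Kcnip4 was the only one of the 4 genes with no called pair of tissues. It was still above noise on 12 brain arrays and on 0, 3 and 1 of liver, spleen and thymus. Its smallest brain excess was 0.87, under the 1 required for a call.

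The pore of the large-conductance calcium-activated channel, Kcnma1, ran from 242 to 628 in brain with a median of 395, and its highest value elsewhere was 31.0, in thymus. Its neuronal partner Kcnmb4 was also highest in brain, at 322 ± 41.2 (SD, n = 12), but was above noise on all spleen and thymus arrays, with 49.4 ± 11.7 and 82.9 ± 20.3. The smallest differences were 3.96 for Kcnma1 and 1.79 for Kcnmb4, the latter from thymus. Kcnu1, a relative of Kcnma1 known mainly from sperm, was called higher in brain as well, by at least 1.94. Kcnu1 entered the test through brain alone and was bound to lean that way.

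Kcnk1, a weak inward-rectifying two-pore-domain channel, was the member with the widest gap between brain and each other tissue. Its brain values ran from 1148 to 1516 with a median of 1198, and the highest value elsewhere was 45.1, in thymus. The smallest of its 3 log2 differences was 5.53 (SE 0.14, adjusted p 4.4e-36), a ratio of 46.1 on that scale. Of the inward rectifiers, Kcnj4, a neuronal channel, led with 289 ± 46.7 (SD, n = 12) in brain, and its smallest difference was 3.52, from liver.

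**Figure D2:**
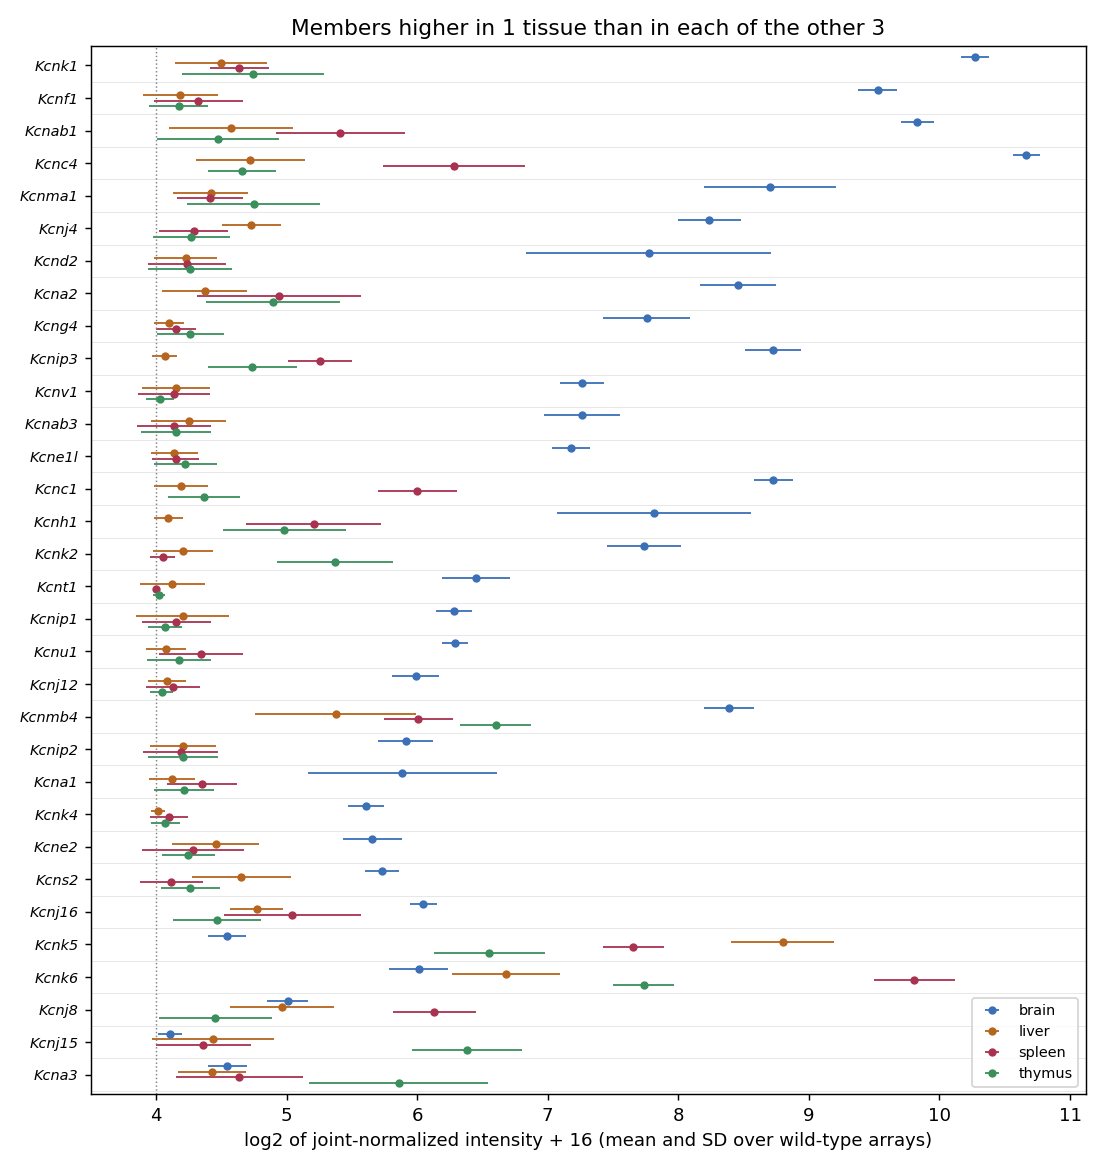
Mean and SD of log2 of joint-normalized intensity plus 16 (horizontal axis) over the wild-type arrays of each tissue, for the 32 genes higher in 1 tissue than in each of the other 3, ordered by tissue and by the smallest difference. The dotted line marks an intensity of 0; Kcnk1 heads the brain genes at 5.53 above its next tissue.

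Liver expressed few of the genes, and Kcnk5, an acid-sensitive two-pore-domain channel of epithelia, stood out among them. Its intensity ran from 288 to 642 in liver with a median of 422, from 119 to 237 in spleen, from 27.1 to 112 in thymus and from 3.02 to 9.56 in brain. Liver values lay above all those of the other tissues, and every pair of tissues differed by 1.10 or more on the log2 scale. Its 2 further probes were also higher in liver than in the other tissues at an unadjusted p under 0.05. The next liver members were Kcnk6 (90.6 ± 31.6, SD, n = 10), the small-conductance calcium-activated channels Kcnn2 (34.1 ± 14.6) and Kcnn1 (28.2 ± 8.13), and Kcnmb4 (29.3 ± 21.0). Of these, Kcnn2 exceeded spleen by 1.42 and thymus by 1.5.

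In spleen, the two-pore-domain gene Kcnk6 ran from 697 to 1386 with a median of 845. It was above noise on every array of the other tissues too, with medians of 188 in thymus, 80.6 in liver and 46.7 in brain. The smallest difference was 2.07, from thymus (SE 0.09, adjusted p 1.3e-25), and the groups did not overlap. Kcnj8, the pore of the ATP-sensitive channel of vascular smooth muscle, ran from 30.7 to 81.9 in spleen with a median of 59.2, above all arrays of the other tissues, where the highest value was 25.7. The smallest difference was 1.12, but this pattern was lost without normalization across tissues, when spleen was lower than another tissue by 0.64. The smooth muscle marker score was also highest in spleen, at 7.97 to 8.32 against 6.12 to 7.45 in thymus, 5.88 to 6.15 in brain and 4.91 to 5.68 in liver. Its part in the Kcnj8 difference was not tested. Kcnk13, a two-pore-domain channel known from microglia, reached 91.4 ± 19.1 (SD, n = 12) in spleen and 147 ± 15.7 in brain, a difference of 0.61, and both exceeded liver and thymus by more than 1.

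In thymus, Kcnj15, an inward rectifier of epithelia, ran from 31.2 to 125 with a median of 69.5. Its highest value elsewhere was 25.6, in liver, and it was above noise on 0 of 12 brain arrays. Thymus exceeded brain at least 4.36-fold, and the smallest of the measured log2 differences was 1.94, from liver (SE 0.15, adjusted p 9.4e-16). Neither of the other 2 Kcnj15 probes could be tested in the wild types. Kcna3, the main voltage-gated channel of T lymphocytes, ran from 0 to 84.0 in thymus with a median of 45.3, and 11 of the 12 arrays were above noise. The groups overlapped, since spleen reached 24.6, and the smallest difference was 1.22 (adjusted p 1.6e-08), which was 0.23 (adjusted p 0.114) without normalization across tissues.

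The calcium-activated lymphocyte channel Kcnn4 marked both lymphoid tissues. Thymus held 183 ± 27.7 (SD, n = 12) and spleen 94.8 ± 30.3, while it was above noise on a single array of brain and of liver. Thymus exceeded brain by 3.57 and liver by 3.32 on the log2 scale, and spleen exceeded them by 2.69 and 2.44. Kcnh2, known for the cardiac repolarizing current, and the related forebrain gene Kcnh3 were shared by brain and thymus. Kcnh2 had 210 ± 51.9 in thymus and 165 ± 30.1 in brain, against 17.8 ± 7.98 in spleen and 3.59 ± 3.54 in liver. Kcnh3 had 217 ± 66.2 in brain and 116 ± 14.5 in thymus, and at most 12.1 on any array of spleen or liver.

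**Figure D3:**
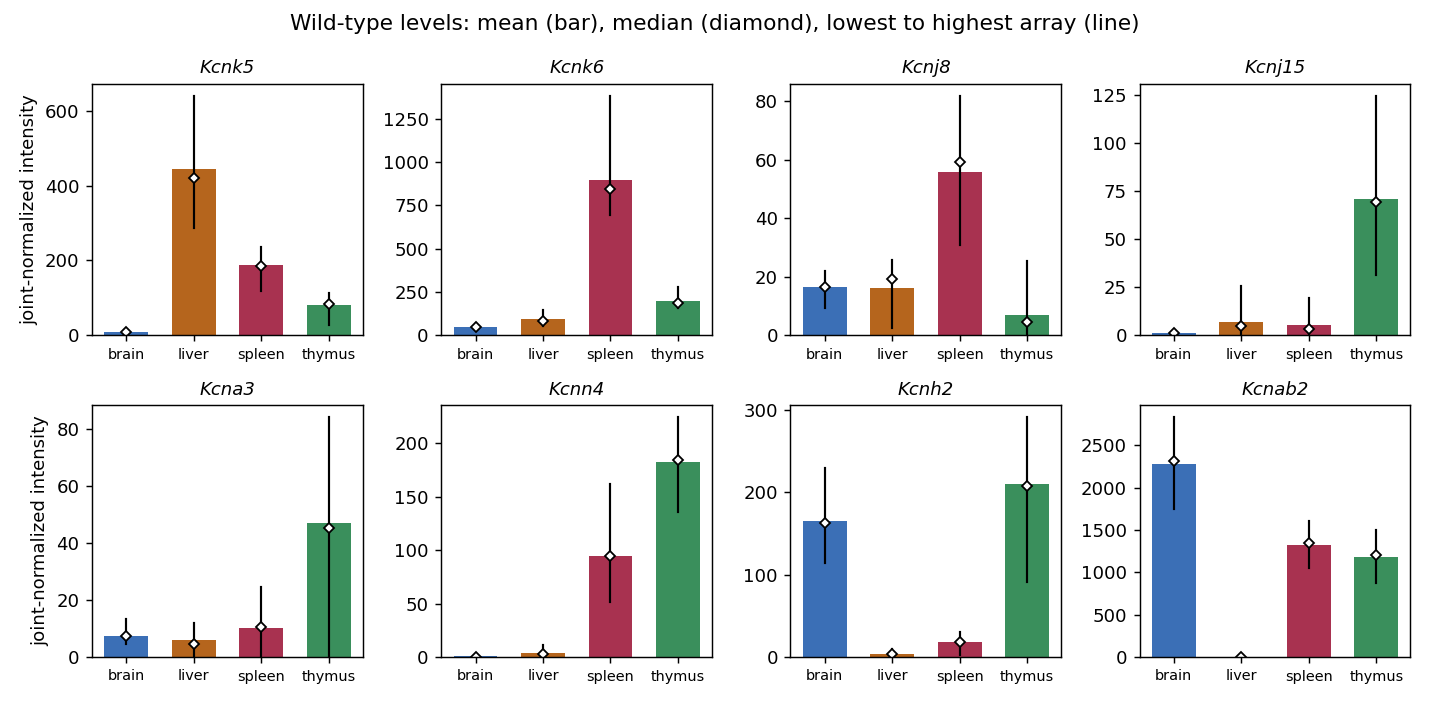
Joint-normalized intensity (vertical axis, starting at 0) of 8 genes in wild types of each tissue. Bars are means, diamonds medians and lines run from the lowest to the highest array; Kcnk5 is highest in liver, Kcnk6 and Kcnj8 in spleen, Kcnj15 and Kcna3 in thymus, and Kcnab2 is above noise on none of the 10 liver arrays.

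Among the other genes that differed between some tissues were Kcna5 and Kcna6, voltage-gated pores with their highest means in brain, Kcnk3, a two-pore-domain channel also highest there, and Kcnq1, a voltage-gated pore highest in spleen. The 24 genes with no called pair included the G protein-gated inward rectifiers Kcnj3, Kcnj6 and Kcnj9, the classical inward rectifier Kcnj2 and the neuronal pores Kcnq3 and Kcnq5. Lacking a call does not mean equal levels. Kcnj9 and Kcnq5 were above noise on 12 brain arrays and on at most 1 array of any other tissue. Their smallest brain excesses were 0.66 and 0.75. The 13 genes too dim to test in the wild types included Kcna4, Kcnd3, Kcnh7 and Kcnj1. Of a list of 24 partners of these channels (auxiliary proteins, pacemaker channels, sodium pumps and chloride cotransporters), 18 had a probe. Of these partners, 12, 10 and 11 were higher in brain than in liver, spleen and thymus, beside 18.0%, 17.8% and 16.7% of all probes. Another 3, 2 and 1 were lower, beside 16.2%, 17.9% and 17.7%.

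Promoters were read for members with a RefSeq entry (assembly GRCm38.p6), using the 250 bases before each start, and 84 promoters of 62 genes were found. They held a median of 8 CG dinucleotides against 6 over all 32851 promoters. The letters GGGCGG, known as the GC box, occurred on either strand in 46.4% of member promoters and 32.7% of all. The letters TATAAA occurred in 2.38% against 12.4%, and the E-box CAGCTG in 20.2% against 13%. Among the 34 promoters of brain members, 26.5% held that E-box and 47.1% the GC box, with a median of 6 CG dinucleotides. Of the 4 promoters of members higher in liver, spleen or thymus, 50% held the GC box and 0% the E-box. To show a promoter of each kind, that of 1 gene higher in brain, in liver or in thymus is printed 5′ to 3′ on its own strand, with GC boxes and E-boxes on either strand in capitals.
Kcna2, brain (chr3:107101317-107101566, plus strand): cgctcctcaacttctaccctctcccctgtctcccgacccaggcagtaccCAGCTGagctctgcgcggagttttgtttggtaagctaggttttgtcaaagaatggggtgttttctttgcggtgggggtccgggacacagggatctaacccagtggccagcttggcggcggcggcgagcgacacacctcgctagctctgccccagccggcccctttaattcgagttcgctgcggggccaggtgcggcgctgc
Kcnk5, liver (chr14:20181783-20182032, minus strand): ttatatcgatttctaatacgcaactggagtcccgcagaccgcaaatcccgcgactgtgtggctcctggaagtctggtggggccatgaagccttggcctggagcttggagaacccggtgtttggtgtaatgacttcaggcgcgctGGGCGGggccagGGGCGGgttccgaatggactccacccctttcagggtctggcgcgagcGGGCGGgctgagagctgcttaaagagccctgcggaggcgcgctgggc
Kcna3, thymus (chr3:107035912-107036161, plus strand): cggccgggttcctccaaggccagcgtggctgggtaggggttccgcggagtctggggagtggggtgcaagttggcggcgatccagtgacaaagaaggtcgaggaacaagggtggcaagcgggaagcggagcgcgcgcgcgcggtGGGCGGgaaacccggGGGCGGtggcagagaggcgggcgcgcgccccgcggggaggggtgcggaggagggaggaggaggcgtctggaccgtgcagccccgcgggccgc
The Kcnk5 promoter held 3 GC boxes and the Kcna3 promoter 2, while the Kcna2 promoter held an E-box and no GC box. They are single examples and do not stand for the genes of a tissue. These matches describe letters in the window and not bound sites.

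Wild types of the 3 lines did not share a level for every member. In brain, 5 of 97 tested member probes (5.15%) had line means more than 1 apart on the log2 scale of joint-normalized values, against 2.10% of all probes. They were Kcna1, Kcnd2, Kcnh1, Kcnj6 and Kcnk3. Kcnd2 had 271 ± 41.2 (SD, n = 4) in the wild types of the Hmgn1 line, 101 ± 66.0 in those of the Hmgn3 line and 342 ± 17.6 in those of the Hmgn5 line. Kcnh1, a voltage-gated pore of the ether-à-go-go group, followed the same order with 243 ± 20.3, 106 ± 28.3 and 356 ± 53.0. Kcna1, in contrast, was highest in the Hmgn1 line, with 96.1 ± 13.4 against 26.0 ± 11.6 and 29.8 ± 6.15. The share was 2.3% of members in liver, 1.54% in spleen and 3.03% in thymus, against 5.57%, 1.55% and 4.33% of all probes. Mutants were therefore set only against wild types of their own line.

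Labelled mutants were compared with wild types in the 12 combinations of line and tissue, fitting all probes of a tissue with limma. Of the members, 97 probes could be tested for brain, 66 for thymus, 65 for spleen and 43 for liver. None passed an adjusted p of 0.05 in any of the 12 comparisons. In the Hmgn1 line this was 0 members beside 0% of all probes for brain, 0.0318% for liver, 3.08% for spleen and 0.0494% for thymus. In the Hmgn3 line the background was 0.0104% for brain, 0% for liver, 2.06% for spleen and 0.0110% for thymus. In the Hmgn5 line it was 0.0208%, 0.419%, 0.900% and 0.0933% in the same order.

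At an unadjusted p under 0.05 the members gave 4, 4, 8 and 1 probes in brain, liver, spleen and thymus of the Hmgn1 line. All probes gave 3.88%, 8.10%, 19.2% and 8.37% there, and the member shares were 4.12%, 9.30%, 12.3% and 1.52%. In the Hmgn3 line the members gave 9, 3, 6 and 2 probes, or 9.28%, 6.98%, 9.23% and 3.03%, beside 10.7%, 4.86%, 15.2% and 6.31% of all. In the Hmgn5 line they gave 12, 5, 2 and 14, or 12.4%, 11.6%, 3.08% and 21.2%, beside 8.94%, 11.1%, 14.5% and 9.16%. The member share was below that of all probes in spleen of each line, and its widest excess over all probes in these 12 comparisons was in Hmgn5 thymus, where it was lost without 1 wild-type array. The median change of the members lay between -0.06 and 0.04 on the log2 scale in the 12 comparisons.

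**Figure D4:**
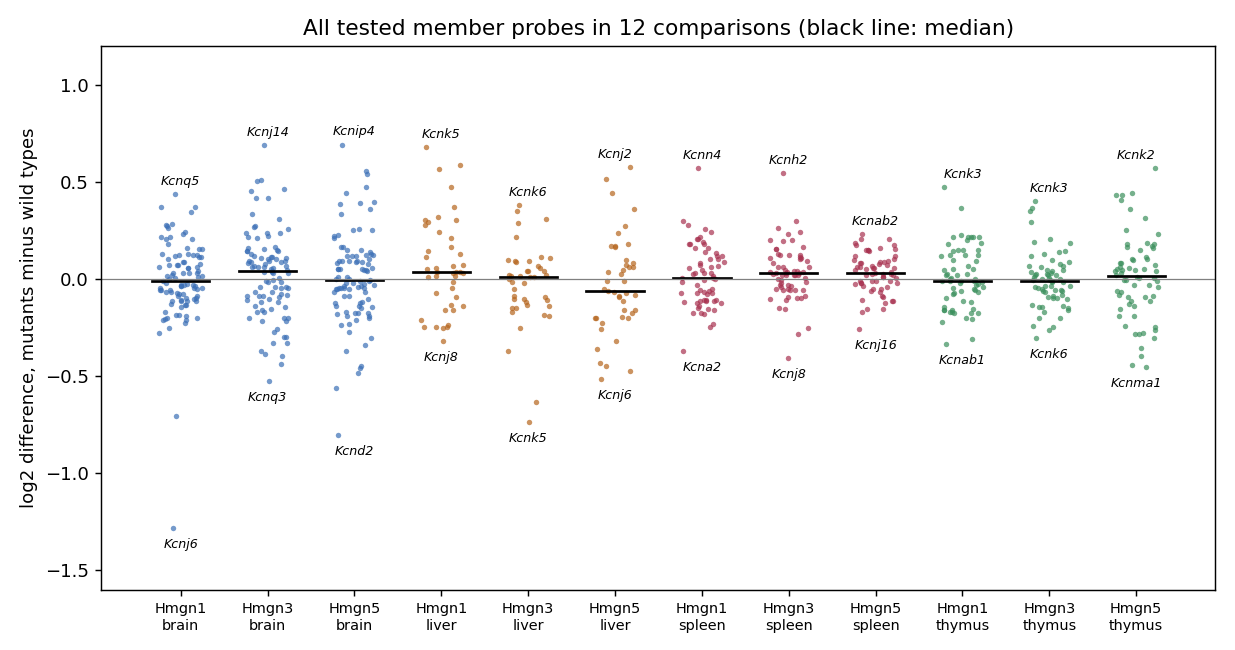
Difference between labelled mutants and wild types on the log2 scale (vertical axis) for every tested member probe in each line and tissue, with the median as a black line and the extreme genes named. Kcnj6 in the Hmgn1 brain, at -1.28, lies farthest from 0.

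Kcnj6, a G protein-gated inward rectifier that slows the firing of dopamine and other neurons, came nearest to the threshold in brain. It lies on chromosome 16 (GRCm38.p6, 94744980 to 94997696), 1.12 Mb from Hmgn1 (96121588 to 96127725). The brightest of its 4 probes, ILMN_3112363, read 53.8, 55.0, 61.3 and 47.9 in the wild types of the Hmgn1 line. It read 17.6, 10.8, 25.3 and 2.72 in the labelled Hmgn1 mutants. All 4 mutants lay below all 4 wild types, and the means were 54.5 ± 5.50 and 14.1 ± 9.65 (SD, n = 4). The difference was -1.28 on the log2 scale (SE 0.24, 95% interval -1.77 to -0.79), with an adjusted p of 0.0704 in limma, so it did not pass.

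A second Kcnj6 probe, ILMN_3038066, read 18.9, 9.91, 15.9 and 20.9 in the wild types and 0.95, 8.18, 7.14 and 0 in the mutants. The groups again did not overlap, with 0 of 4 mutants above noise, and the wild types were at least 1.31-fold higher (adjusted p 0.440). The remaining 2 probes were above noise on at most 1 of the 4 arrays in either group of this line. In the other lines ILMN_3162725 was above noise on 3 or 4 of the 4 brains of each group. The midbrain dopamine marker score ran from 7.88 to 8.16 in these wild types and from 7.87 to 8.04 in the mutants. The cerebellar score ran from 8.98 to 9.09 and from 9.03 to 9.23. Both scores overlapped between the groups, and the part of such markers in the Kcnj6 values was not tested.

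In the other lines Kcnj6 did not follow this pattern in brain. The wild types of the Hmgn3 line read 2.28, 9.30, 15.1 and 11.9 with ILMN_3112363, a mean of 9.63 ± 5.43, and their labelled mutants averaged 9.58 ± 6.61. With all wild types normalized together, those of the Hmgn3 line still read 5.37 ± 3.25, below 21.3 ± 2.24 in the Hmgn1 line and 30.3 ± 10.3 in the Hmgn5 line (SD, n = 4). The Hmgn5 line averaged 78.8 ± 27.6 in wild types and 64.3 ± 11.2 in labelled mutants, a difference of -0.20 (adjusted p 0.837). In thymus and spleen of the Hmgn1 line the same probe differed by -0.17 and -0.18 with adjusted p of 0.790 and 0.460, and no group mean exceeded 5.23.

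**Figure D5:**
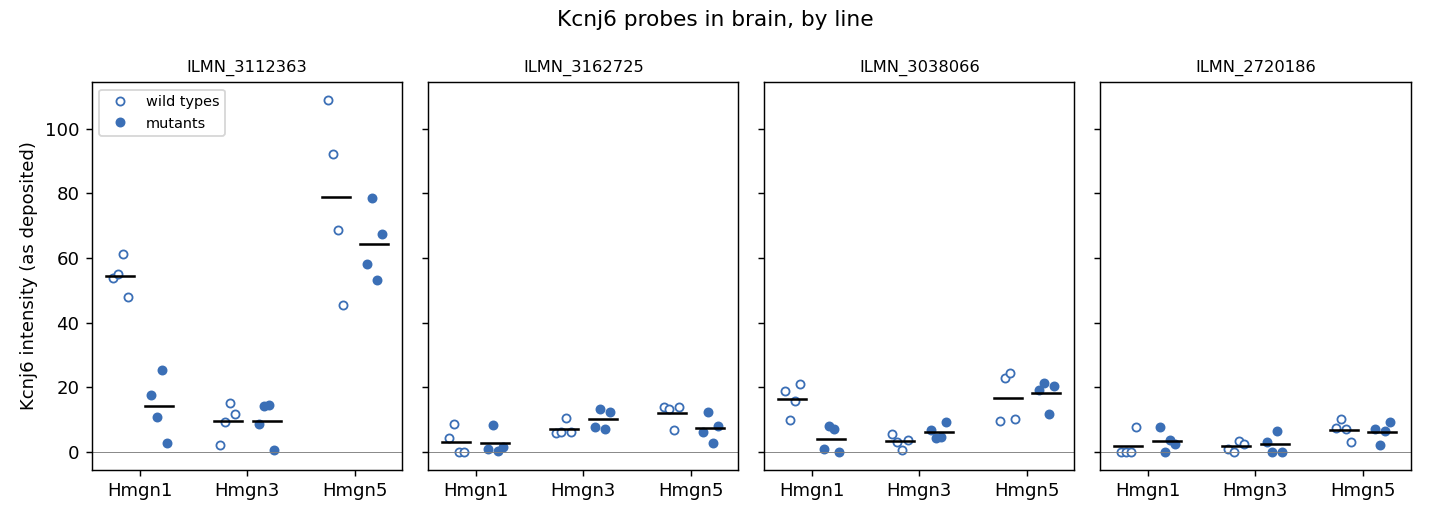
Deposited intensity (vertical axis) of the 4 Kcnj6 probes in each brain array, with wild types open, labelled mutants filled and means as black lines. With ILMN_3112363 the Hmgn1 mutants (2.72 to 25.3) lie below the Hmgn1 wild types (47.9 to 61.3), and both groups of the Hmgn3 line average under 10, in an array set normalized separately.

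Because 4 member genes lie within 10 Mb of Hmgn1 and none lies as near to Hmgn3 or Hmgn5, their starts are shown for Kcnj6 and for Kcnj15, the closest at 0.821 Mb. Capitals mark the GC box (either strand) and the letters CAGCACC, the left part of the RE1 element bound by the neuronal repressor REST, which occurred in 5.95% of member promoters and 5.73% of all.
Kcnj6, inner start (chr16:94856691-94856940, minus strand): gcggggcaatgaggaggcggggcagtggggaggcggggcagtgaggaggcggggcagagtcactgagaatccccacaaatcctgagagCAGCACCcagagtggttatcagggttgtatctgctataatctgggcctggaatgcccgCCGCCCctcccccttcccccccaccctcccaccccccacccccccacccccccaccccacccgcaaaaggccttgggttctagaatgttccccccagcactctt
Kcnj6, outer start (chr16:94997697-94997946, minus strand): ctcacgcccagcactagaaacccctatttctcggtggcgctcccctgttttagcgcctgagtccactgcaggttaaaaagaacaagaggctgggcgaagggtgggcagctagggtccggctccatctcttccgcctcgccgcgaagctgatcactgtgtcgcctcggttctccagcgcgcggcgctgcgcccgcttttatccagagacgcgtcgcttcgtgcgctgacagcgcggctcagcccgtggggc
Kcnj15 (chr16:95257308-95257557, plus strand): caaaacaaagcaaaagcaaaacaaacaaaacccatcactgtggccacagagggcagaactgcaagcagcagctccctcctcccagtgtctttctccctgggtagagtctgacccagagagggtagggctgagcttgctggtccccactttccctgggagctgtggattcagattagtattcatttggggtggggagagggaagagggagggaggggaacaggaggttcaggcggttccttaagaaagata
The inner Kcnj6 start held a GC box and the left RE1 letters, the outer start neither but 26 CG dinucleotides, and the Kcnj15 start held 1 CG and none of the 5 motifs searched. The right part of RE1, GGACAGC, was absent from these 3 windows.

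The other neighbours of Hmgn1 did not pass the test either. Kcnj15 in thymus read 37.7, 55.1, 31.6 and 42.0 in the wild types of the Hmgn1 line and 29.9, 31.8, 32.1 and 26.6 in the labelled mutants. The groups overlapped, and the difference was -0.31 (adjusted p 0.707). It was -0.24 in the Hmgn3 line (adjusted p 0.964) and -0.39 in the Hmgn5 line (adjusted p 0.518), so the sign was shared by all 3 lines and none passed. Kcne2, an accessory subunit 3.82 Mb from Hmgn1 and a gene of the choroid plexus, read 94.6 ± 13.9 in Hmgn1 wild-type brain and 87.4 ± 12.3 in mutants (SD, n = 4, adjusted p 1). Kcne1, a cardiac accessory subunit 3.76 Mb away, differed by 0.16 and 0.10 with its 2 tested probes in the same brains.

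In spleen, the nearest to the threshold were channels of lymphocytes and of repolarization. Kcnn4 read 39.0, 49.7, 52.9 and 40.9 in the wild types of the Hmgn1 line and 56.3, 77.7, 94.3 and 77.0 in the labelled mutants. Every mutant lay above every wild type, which is no separate support, since Kcnn4 was named by its p. The difference was 0.57 (SE 0.17, adjusted p 0.0663). It was 0.24 in the Hmgn3 line (adjusted p 0.567) and 0.18 in the Hmgn5 line (adjusted p 0.750). Kcnh2 with ILMN_3123864 read 4.86, 0.51, 3.87 and 5.93 in the wild types of the Hmgn3 line and 7.80, 7.42, 22.7 and 15.7 in the labelled mutants. These groups did not overlap, the difference was 0.55 (SE 0.15) and the adjusted p was 0.05003, just above the threshold. The other 2 tested Kcnh2 probes were above noise on 0 of these 4 wild types.

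Markers of other cell types and tissues also varied among these spleens. In the Hmgn3 line the T cell score ran from 6.47 to 6.79 in wild types and from 6.78 to 7.04 in mutants, with 3 of 3 tested markers higher and 1 past the test. The macrophage score there ran from 7.29 to 7.49 and from 7.45 to 7.74, with 3 of 3 higher and none past the test. The pancreatic acinar score ran from 4.99 to 9.53 in Hmgn1 wild types and from 4.96 to 11.4 in the mutants, and from 4.80 to 6.15 and 4.98 to 8.22 in the Hmgn3 line. In Hmgn1 spleen, 3 of 3 tested erythroid markers and 2 of 3 T cell markers were higher in mutants. Of the B cell and of the macrophage markers, 1 of 3 each was higher there, and 0 of all these passed the test. The part of these markers in the Kcnn4 and Kcnh2 values was not tested. Kcnab2, the brightest member of spleen, was higher in labelled mutants by 0.24, 0.23 and 0.23 in the Hmgn1, Hmgn3 and Hmgn5 lines, with adjusted p of 0.162, 0.228 and 0.253. Each of the lower values of smallest p in spleen also missed the threshold: Kcna2 in the Hmgn1 line (-0.37, adjusted p 0.146), Kcnj8 in the Hmgn3 line (-0.41, adjusted p 0.117) and a Kcnmb4 probe in the Hmgn5 line (2.77 in wild types and 0.66 in mutants, none of the latter above noise, adjusted p 0.334).

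In brain, Kcnh3 differed in opposite directions in 2 lines. It read 261, 239, 356 and 303 in the wild types of the Hmgn3 line and 300, 483, 478 and 426 in the labelled mutants, a difference of 0.51 (adjusted p 0.262). In the Hmgn5 line it read 744, 570, 763 and 717 in wild types and 556, 634, 445 and 411 in mutants, a difference of -0.45 (adjusted p 0.467). The groups overlapped in both lines, and the test of a difference between lines gave an adjusted p of 0.326. Kcnj4 was lower in the labelled Hmgn3 mutants by 0.38 (adjusted p 0.336), where 1 of the 4 mutants, at 574, lay within the wild-type range of 467 to 585 and the other 3 at 328 to 365. Cerebellar and muscle markers also varied in this group. The cerebellar score was 9.22, 9.26, 9.28 and 7.36 in mutant replicates 1 to 4, and the skeletal muscle score was 7.60 in replicate 2 and at most 5.07 in the others; their part was not tested.

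The higher value of smallest p in Hmgn1 brain was Kcnq5, a pore of the neuronal M-current. It read 24.4, 18.7, 25.3 and 32.7 in wild types and 36.9, 38.2, 43.1 and 39.6 in labelled mutants. The groups did not overlap, and the difference of 0.44 had an adjusted p of 0.833. In Hmgn5 brain the corresponding gene was Kcne1 (0.54, adjusted p 0.450), from 3.66 ± 4.31 to 12.1 ± 1.92 (SD, n = 4).

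In liver, Kcnj2, an inward rectifier that holds the resting potential, was the higher member of smallest p in the Hmgn1 and Hmgn5 lines. In the Hmgn5 line it read 0.01, 8.41 and 7.25 in the wild types, none above noise, and 12.6, 24.1, 10.2 and 15.1 in the labelled mutants. The mutants were at least 1.27-fold higher (adjusted p 0.201). In the Hmgn1 line the difference was 0.57 (adjusted p 0.340). Kcnk5, the brightest liver member, averaged 486 ± 82.3 (SD, n = 3) in Hmgn1 wild types and 886 ± 469 (n = 4) in mutants, 235 ± 88.1 and 133 ± 51.3 (n = 4 each) in the Hmgn3 line, and 736 ± 180 (n = 3) and 577 ± 167 (n = 4) in the Hmgn5 line. None of these passed, with adjusted p of 0.680 or more. The other liver members of smallest p were Kcnj8 in the Hmgn1 line (-0.32, adjusted p 0.649), Kcnk6 and Kcne1 in the Hmgn3 line (0.38 and -0.37, adjusted p 0.804 and 0.933) and Kcnrg in the Hmgn5 line (9.19 in wild types and 2.24 in mutants, none of the latter above noise, adjusted p 0.202). Endothelial and macrophage markers differed in the same livers. In Hmgn1 liver the endothelial score ran from 7.39 to 7.67 in wild types and from 7.13 to 7.34 in mutants, with 0 of 4 markers higher, and the median macrophage marker differed by -0.53. In Hmgn3 liver the endothelial score ran from 5.59 to 5.90 and from 5.93 to 6.03, with 4 of 4 higher, and the median macrophage marker differed by 0.52. None of these markers passed the test, and their part in the liver values was not tested.

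In Hmgn5 thymus, where 21.2% of member probes had an unadjusted p under 0.05, some arrays stood apart. The lowest correlation between 2 arrays of a group, 0.959 over the 24 groups, was among its wild types, and the skeletal muscle score was 8.96 in wild-type replicate 1 and at most 5.07 in the other 3. Without that array 13 members had such a p, beside 14 with all arrays. Without wild-type replicate 4 the number was 6 (9.09%, beside 10.6% of all probes), and without mutant replicate 2 it was 7 (10.6%, beside 8.57%), so the excess over all probes was lost without the first and smaller without the second. The smallest adjusted p, 0.271, belonged to Kcna10, a voltage-gated pore, which averaged 4.86 ± 2.70 in wild types and 12.2 ± 4.37 in labelled mutants (SD, n = 4), with 1 and 3 arrays above noise. The lower member of smallest p was Kcnma1, which read 7.75, 5.02, 13 and 22.7 in wild types and 3.96, 2.45, 6.37 and 3.31 in mutants, none of them above noise (adjusted p 0.343). The lymphocyte channel Kcna3 averaged 24.2 ± 16.2 and 14.7 ± 6.28 in the same groups (adjusted p 0.806). In the thymus of the Hmgn3 line Kcnk5 and a Kcnk6 probe had the smallest p (0.35 and -0.30, adjusted p 0.784 and 0.604). In that of the Hmgn1 line 2 Kcnab1 probes near the noise had them, with opposite signs (0.22 and -0.33, adjusted p 0.611 and 0.454). Other thymuses carried muscle markers too. The skeletal muscle score was 8.94 and 9.05 in Hmgn3 mutant replicates 1 and 3, and at most 5.01 in the other mutants and 5.72 in the wild types of that line. It was 9.40 in Hmgn1 mutant replicate 4 and 6.26 in Hmgn5 mutant replicate 4. The part of muscle in the thymus values was not tested.

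The brain members with the widest gaps between tissues stayed near 0. Kcnk1, Kcnf1, Kcnc4 and Kcnab1, by their brightest probes, differed between labelled mutants and wild types by -0.14 to 0.09 on the log2 scale over the 3 lines, with adjusted p of 0.719 or more. With the spread in these groups, a member of median precision would have needed a difference of 0.99 in Hmgn1 brain and 0.37 in Hmgn1 spleen to pass. Of the 18 partner genes, 0 passed in limma in any of the 12 comparisons, and the smallest adjusted p was 0.151. An unadjusted p under 0.05 was found in 12 of their 174 tests. All probes gave 3.88% to 19.2% at that cut-off, depending on the comparison.

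Whether a change differed between lines or between tissues was tested with F tests. Between lines, 0 member probes passed in brain, liver, spleen or thymus, beside 0.00520%, 0.171%, 0.0162% and 0.0494% of all probes. Between tissues, 0 of 106 member probes passed in the Hmgn1, Hmgn3 and Hmgn5 lines, beside 0.490%, 0.145% and 0.281%. At an unadjusted p under 0.05 these tests gave 9, 5, 4 and 3 members between lines and 13, 11 and 9 between tissues. The share of all probes at that cut-off was not computed, so no excess is read from these counts. The smallest adjusted p, 0.0756, was that of Kcnj2 between tissues in the Hmgn1 line.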

How the data were processed

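Total RNA was extracted with Trizol and RNeasy and labelled as biotinylated cRNA for Illumina arrays, per the labels' protocols, and the submitters' processing notes name GenomeStudio 2011.1. The deposited intensity values had background subtracted and share their quantiles within each line and tissue, as the values show, and 19.1% to 29.1% of an array's values lay below 0. A raw table was not used, since its 188 columns matched no sample label.

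The noise of an array was the root mean square of its negative values. Probes above 1.6 times the noise on at least 3 arrays of a tissue were tested on log2 of intensity (floored at 0) plus 16, so that fold changes of dim probes are understated. All 6 groups of a tissue entered a single fit with limma 3.58.1 (R 4.3.3). P-values were adjusted over all tested probes by Benjamini and Hochberg, with a threshold of 0.05. The 46 wild-type arrays were quantile-normalized together and compared between tissues with line as a term and mouse as a random block. The scripts were tested on simulated data. Probes were named from the platform annotation, with 23978 named and 1719 unnamed. Of several probes of a gene, the one of highest mean wild-type signal gave its level. In each mutant comparison the text names the higher and the lower member of smallest p, beside neighbours of the targeted genes. Where the groups of a member named by its p do not overlap, this is no separate support for a change. The share of all probes without overlap is not given. Promoters came from RefSeq (GRCm38.p6).

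Members and lists were chosen with earlier results of these data known. The labels name separate mice as replicates, and the number of arrays limits the precision. Among the wild types, 1 mouse was placed in its line by elimination. Leave-one-out, filter, floor, normalization, array weight and block alternatives were tried. Leaving out arrays for the unadjusted count in Hmgn5 thymus was chosen after seeing the data.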

Additional observations from a re-analysis of the deposited data

Results flagged for a closer look

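For the members of smallest p in each comparison, 44 sets of 4 arrays (1 probe in 1 group) were examined. A single array stood apart from the others in 2 of them, and chance alone gives about 1 in 20. Kcnj4 read 573.5 in replicate 1 of the labelled Hmgn3 mutant brains, while the other 3 read 328.3 to 364.9. The Kcnk6 probe ILMN_3049650 read 2.111 in replicate 4 of the wild-type thymuses of the Hmgn3 line, while the other 3 read 9.083 to 9.618.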

How the results depend on the processing

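Over the alternatives, 251 values of the main comparisons and 323 of single genes kept their direction and side of the threshold or, for counts, stayed within 1.5 times. Another 24 counts moved further, and 1 main value and 11 of single genes newly passed the threshold. No named change between mutants and wild types turned its sign under an alternative. Array weights gave 1 member in Hmgn1 brain (Kcnj6, -1.20, adjusted p 0.0130), 1 in Hmgn1 spleen (Kcnn4, 0.59, adjusted p 0.0419) and 1 in Hmgn3 spleen (Kcnh2, 0.53, adjusted p 0.0409). Kcnh2 in Hmgn3 spleen was also the 1 call with a stricter filter (adjusted p 0.0401), with the replicate block (adjusted p 0.0302) and with the 3 lines normalized together (0.61, adjusted p 0.0364). With no filter, 1 member was called in Hmgn5 liver (Kcnk6 probe ILMN_3125634, above noise on 1 wild type and 0 mutants, adjusted p 0.00686). The cause was not tested. Replicate numbers mark different mice, same-numbered deviations did not correlate in every pair, and the block changed no other call.

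Leaving out 1 array gave 0 to 2 members in Hmgn1 spleen and in Hmgn3 spleen, 0 to 1 in Hmgn3 brain and in Hmgn5 thymus, and 0 to 0 in the other 8 comparisons. Without mutant replicate 1, Kcnj4 passed in Hmgn3 brain (-0.55, adjusted p 0.0460), and Kcnn4 (0.69, adjusted p 0.0207) and the Kcnh2 probe ILMN_1244402 (0.44, adjusted p 0.0135) passed in Hmgn1 spleen. In Hmgn3 spleen, Kcnh2 and Kcnj8 passed without wild-type replicate 4 (0.60 and -0.53, adjusted p 0.0411 and 0.0301), Kcnh2 and Kcna3 without mutant replicate 1 (0.64 and -0.34, adjusted p 0.0216 and 0.0372), and Kcnh2 without mutant replicate 2 (0.65, adjusted p 0.0331). In Hmgn5 thymus, Kcnk2 passed without wild-type replicate 4 (0.83, adjusted p 0.0358) and Kcnj14, above noise on 0 wild types, without mutant replicate 3 (adjusted p 0.0306). The members of unadjusted p under 0.05 there, left-out arrays being a choice made after seeing the data, numbered 6 to 15. Kcnj6 in Hmgn1 brain ranged from -1.46 to -1.07 without 1 array (adjusted p 0.0637 to 0.339) and from -2.34 to -1.20 under the other alternatives (adjusted p 0.0130 to 1).

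Between wild-type tissues, a floor of 1 with no offset gave 67, 70, 69, 40, 41 and 24 called members for brain against liver, spleen and thymus, liver against spleen and thymus, and spleen against thymus, where the main counts were 41, 45, 41, 15, 16 and 15. It split liver against spleen into 15 higher and 25 lower and liver against thymus into 19 and 22. As deposited, liver against spleen gave 7 (3 higher, 4 lower), spleen against thymus 7 (1 and 6, where the main split was 7 and 8; it was 13 and 11 with the floor of 1 and 9 and 7 without the Hmgn1 wild types) and brain against thymus 55 higher and 2 lower, while the median of all probes moved to 0.52, 1.14, 0.82, 0.28, 0.11 and -0.16. Without the wild types of 1 line, the counts ran 41 to 43, 43 to 46, 42 to 43, 14 to 15, 15 to 17 and 14 to 16. Of the 32 genes higher in 1 tissue, 30 kept the call as deposited (Kcna3 lost it, and Kcnj8 turned to -0.64 against its highest other tissue), 31 without the Hmgn3 wild types (Kcnj8, 0.91) and 30 without those of Hmgn5 (Kcnj16 and Kcnk5, each 0.99). All 32 kept it under the other 6 alternatives.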
